A study of Mus musculus with 3 samples.

Results

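The smooth muscle contractile genes described here are Acta2, Actg2, Acta1, Tagln, Cnn1, Myl9, Lmod1, Tpm1, Tpm2 and Mylk, 10 of the 56833 genes in the deposited table. They were chosen by their role in the contractile apparatus and on their values in these same 3 libraries, so every level and ratio of theirs is a description and none is a test. RNA was sequenced in bulk from cells of the ankle synovium of Efhd1CreER; Ai9 mice. In this genotype a tamoxifen-dependent Cre recombinase made under control of Efhd1 removes a stop before the red reporter tdTomato, and cells positive for tdTomato were sorted by flow cytometry. The sorted cells, called telocytes by the labels, spent 24 h on CytoSoft plates coated with collagen, whose stiffness was 0.2 kPa (here called soft), 8 kPa (intermediate) or 64 kPa (stiff). The question of the study, per its title, is how the stiffness of the matrix bears on telocytes becoming fibroblasts. All 3 groups share the genotype, the sort and the collagen coating, and the age, sex and number of the mice are not given in the sources used here. Each stiffness had 1 library, so no difference has a replicate check, and a difference between cultures cannot be told apart from a difference between stiffness levels.

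Smooth muscle shortens when myosin filaments pull on thin filaments of actin. A calcium signal switches on the myosin light chain kinase, which phosphorylates the regulatory light chain and starts the cycle, and tropomyosin and calponin lie along the actin and modulate it. The same genes are switched on in fibroblasts that turn into contractile myofibroblasts, a state long known to be favoured by stiff substrates. Many of them carry CArG boxes, the sites bound by serum response factor (SRF), whose cofactors of the myocardin family (MRTF) leave free actin monomers and enter the nucleus when actin polymerises.

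The libraries held 25487064 reads at 0.2 kPa, 28081600 at 8 kPa and 26474862 at 64 kPa, and 1 read is worth 0.943 to 1.03 normalized counts. The labelled cell type could be checked only in part. Efhd1 had 10, 5 and 3 reads in order of stiffness, while tdTomato had 818, 1193 and 2668 normalized counts (stiff to soft log2 ratio 1.70). Cd34, a surface marker of telocytes, stood at 235, 242 and 318 normalized counts, and Pdgfra, shared by telocytes and fibroblasts, at 5884, 6298 and 5118. All 9 fibroblast markers examined had reads in each library. All 12 macrophage markers had reads in each library too, and their summed level was 30316, 37517 and 65439 normalized counts, highest at 64 kPa. Fewer cells of a type and less RNA per cell cannot be told apart in bulk RNA.

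Of the contractile genes, 10 of 10 stood higher at 64 kPa than at 0.2 kPa, with log2 ratios from 0.65 (Tpm1) to 2.28 (Actg2). Ratios are log2 of the normalized counts plus 1, which understates low genes, and the intervals given with them are exact 95% Clopper-Pearson intervals that cover counting error only. The median over the 10 genes was 1.97, against 0.0049 over the 11873 genes whose mean over the libraries was 50 normalized counts or more. A gene was counted as different when its log2 ratio reached 1 in size at such a mean. By that rule 8 contractile genes were higher at 64 kPa and 0 were lower, and over all genes 3.22% were higher and 0.387% lower. These shares are given for scale, since the genes were chosen on this contrast. Together the 10 genes took 0.113% of the reads at 0.2 kPa, 0.131% at 8 kPa and 0.335% at 64 kPa.

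**Figure D1:**
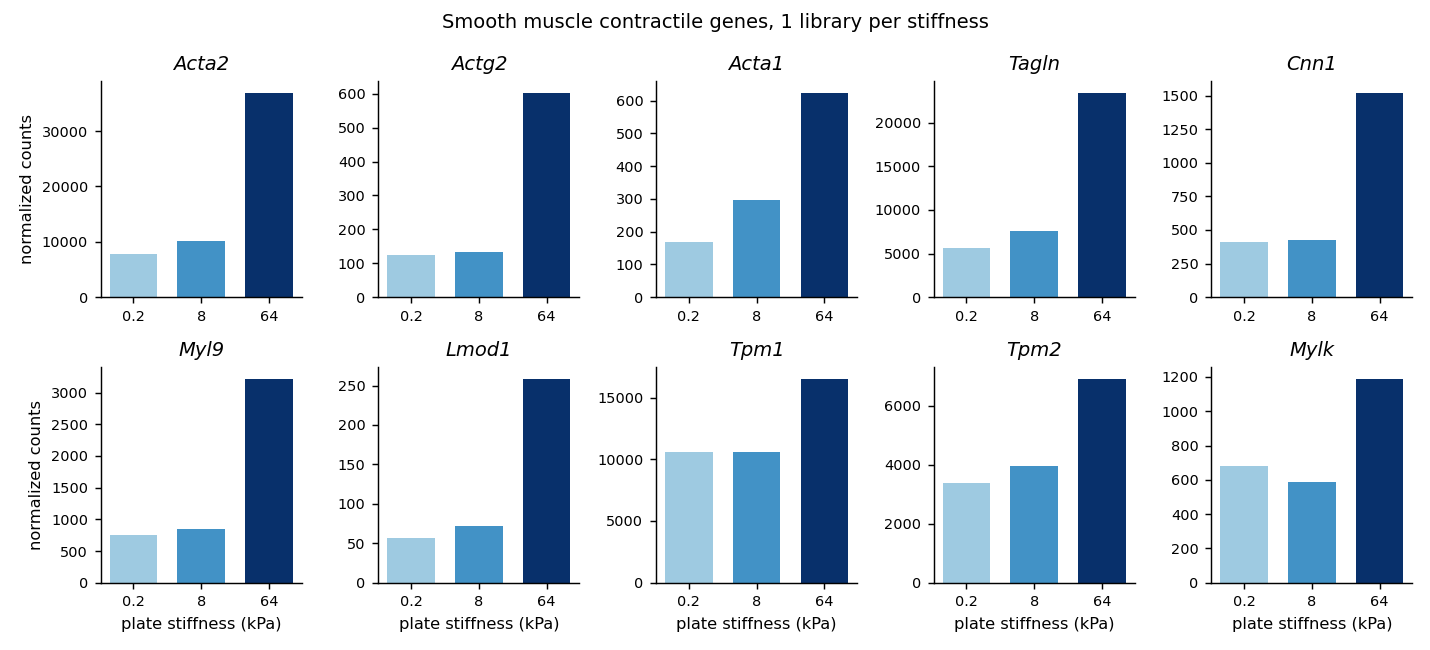
Normalized counts of each contractile gene (vertical axis, from 0, own scale per panel) at plate stiffness 0.2, 8 and 64 kPa (horizontal axis), with 1 library per bar and no error bars. The 64 kPa bar is the highest in all 10 panels, and in Mylk the 8 kPa bar is the lowest.

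The contractile actins form the thin filament. Acta2 encodes smooth muscle alpha-actin, the usual marker of smooth muscle and of myofibroblasts. It lies on the minus strand of chromosome 19 at 34217737 to 34232990 (GRCm39) and has 9 exons in its canonical transcript. Acta2 counted 7779 at 0.2 kPa, 10080.3 at 8 kPa and 36823 at 64 kPa. The 64 kPa library stands apart, and the soft and intermediate ones lie close together. The ratio of stiff to soft was 4.73-fold, or 2.24 in log2 (interval 2.21 to 2.28), and that of intermediate to soft was 0.37 (0.33 to 0.42).

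Actg2 encodes the gamma-actin of enteric smooth muscle. Its gene spans 83489887 to 83513551 of chromosome 6 (minus strand). It had 123 normalized counts at 0.2 kPa, 132 at 8 kPa and 602 at 64 kPa, so the first 2 libraries could not be told apart at this depth (log2 ratio 0.10, interval -0.26 to 0.47). The stiff to soft ratio was 2.28 in log2 (2.01 to 2.59), and nearly all of it lay between 8 and 64 kPa.

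Acta1 encodes the alpha-actin of skeletal muscle, and its gene spans 124618501 to 124623661 of chromosome 8 (minus strand). Its counts were 168 at 0.2 kPa, 297 at 8 kPa and 622 at 64 kPa, and here the intermediate library stood between the others. The log2 ratio was 0.82 for the first step (0.54 to 1.10) and 1.07 for the second (0.87 to 1.27). In Acta1 43.4% of the log2 difference between stiff and soft was present at 8 kPa, the highest share among the 10 genes, whose median was 12.2%. Actc1, the cardiac member of the family, had 1.03, 2.83 and 0 normalized counts, at or under the 3 reads that a count of 0 allows.

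The 3 counted actins are close in sequence, so reads could in principle be shared. The coding sequences of Acta2 and Actg2 are 84.2% identical, those of Acta2 and Acta1 85.4% and those of Actg2 and Acta1 85.0%, and the longest run of identical bases in any of these pairs is 29. The first 90 coding bases from the GENCODE canonical transcripts (GRCm39) are shown as an example of how the 3 genes differ, and further differences lie along the rest of the coding sequence. Capitals in Actg2 and Acta1 mark bases that differ from Acta2 in the pairwise alignment, and capitals in Acta2 mark bases that differ from at least 1 of the others.
Acta2 coding start: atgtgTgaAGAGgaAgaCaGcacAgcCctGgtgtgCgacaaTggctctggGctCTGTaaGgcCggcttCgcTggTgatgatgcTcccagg
Actg2 coding start: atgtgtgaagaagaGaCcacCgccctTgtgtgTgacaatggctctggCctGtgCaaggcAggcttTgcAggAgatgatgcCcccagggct
Acta1 coding start: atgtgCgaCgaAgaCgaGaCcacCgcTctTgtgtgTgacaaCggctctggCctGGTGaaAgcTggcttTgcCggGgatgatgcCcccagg
Within this stretch Acta2 has 24 such bases, Actg2 13 and Acta1 22, and the Actg2 coding sequence is shorter, at 1128 against 1131 bases. Acta1 and Acta2 share longer identical runs with the abundant non-muscle actins, 77 bases between Acta1 and Actb and 56 between Acta2 and Actg1, while the longest run of Actg2 with either was 26. How reads with several matches were counted is not given in the sources used here. The count of Acta1, at most 622 beside up to 84152 for Actb, is uncertain for that reason.

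Tagln encodes transgelin (SM22-alpha), a small actin-binding protein and early marker of smooth muscle. The gene spans 45840909 to 45847404 of chromosome 9 (minus strand) and has 5 exons. Tagln reached 5672 normalized counts at 0.2 kPa, 7600.1 at 8 kPa and 23402 at 64 kPa. As in Acta2, the intermediate library was slightly above the soft one and far below the stiff one. The stiff to soft ratio was 2.04 in log2 (2.00 to 2.09), and that of intermediate to soft was 0.42 (0.37 to 0.47). On the opposite strand Tagln overlaps the noncoding transcript Gm48529, with 57.4, 66.0 and 149.7 normalized counts, and Pcsk7, with 812, 813 and 834. The library kit keeps strand, but whether the counting used it is not given, and reads of overlapping genes could then be mixed. The same holds for Acta2, which overlaps Stambpl1 (1070.3, 1098 and 883 normalized counts), and for Myl9, which overlaps 5730471H19Rik (81.0, 83.9 and 86.1).

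Cnn1 encodes calponin 1, which binds actin and slows the myosin motor. It lies on the plus strand of chromosome 9 at 22010512 to 22020926. Its normalized counts were 409 on the soft, 423 on the intermediate and 1519 on the stiff plate, and the soft and intermediate libraries could not be told apart at this depth. The log2 ratio was 0.05 for intermediate to soft (-0.15 to 0.25) and 1.84 for stiff to intermediate (1.69 to 2.00). Cnn1 overlaps Elof1 on the opposite strand, which had 1578, 1486 and 1389.6 normalized counts, more than Cnn1 itself on the soft and intermediate plates, and the strand limit given for Tagln applies.

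Lmod1 encodes leiomodin 1, a smooth muscle protein that starts new actin filaments. The gene spans 135252509 to 135295907 of chromosome 1 (plus strand) and has 3 exons. This was the lowest of the 10 genes, with 56.4, 71.6 and 258 normalized counts in order of stiffness. Its stiff to soft ratio was 2.18 in log2, with an interval from 1.77 to 2.64 that its low counts leave wide. The intermediate and soft libraries differed by 0.34 (-0.17 to 0.87), not detectable at this depth.

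The myosin side was represented by Myl9 and Mylk. Myl9 encodes the regulatory light chain of smooth muscle myosin, and the gene spans 156617084 to 156623579 of chromosome 2 (plus strand). It had 751 normalized counts at 0.2 kPa, 854 at 8 kPa and 3216 at 64 kPa. The stiff library was 4.28-fold above the soft one (log2 ratio 2.10, interval 1.98 to 2.22), while the intermediate was 1.14-fold above it (0.18, 0.04 to 0.33).

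Mylk encodes the myosin light chain kinase that phosphorylates this light chain. It spans 34565580 to 34822790 on the plus strand of chromosome 16, with 32 exons in the canonical transcript. Its counts were 682 at 0.2 kPa, 590.1 at 8 kPa and 1189 at 64 kPa. Mylk was the only contractile gene of the 10 with its lowest value on the intermediate plate, with an intermediate to soft ratio of -0.21 (-0.37 to -0.05). The stiff to soft ratio was 0.80 (0.66 to 0.94) and that of stiff to intermediate 1.01 (0.87 to 1.15), just past the threshold. The latter was 0.97 under scaling to library totals, 0.99 under scaling to the upper quartile and 0.998 with a pseudocount of 10, all short of it. Mylk has a long transcript, and ratios in these libraries varied with transcript length and GC content. With a local linear trend in both subtracted, its stiff to soft ratio was 0.26, its intermediate to soft ratio -0.55 and its stiff to intermediate ratio 0.80. The gene also makes the short product telokin and a long non-muscle kinase, which a count per gene does not separate.

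The tropomyosins lie along the thin filament. Tpm1, on the minus strand of chromosome 9 at 66929870 to 66956953, counted 10553 on the soft, 10586 on the intermediate and 16513 on the stiff plate. The soft and intermediate libraries were equal within counting error, at 0.004 in log2 (-0.03 to 0.04), and the stiff one was 1.56-fold above the soft one, the smallest ratio of the 10. Tpm2, on the minus strand of chromosome 4 at 43514697 to 43524949, had 3393, 3964 and 6906 normalized counts in order of stiffness. Its stiff to soft ratio of 1.02 (0.96 to 1.09) lay just inside the threshold, and it was 0.97 under scaling to library totals and 0.83 with the length and GC trend subtracted. Both genes make muscle and non-muscle products by alternative splicing, and the counts add them together.

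Taken in 2 steps, the difference between soft and stiff lay mostly above 8 kPa. Between intermediate and soft the median log2 ratio of the 10 genes was 0.20, with 9 above 0 and 1, Mylk, below. Over all 11873 genes the median was 0.0117 and 53.5% were above 0. None of the 10 reached a ratio of 1 there, when 0.16% of all 11873 genes did so upward. Counting intervals lay above 0 for Acta2, Acta1, Tagln, Myl9 and Tpm2, and below 0 for Mylk. Between stiff and intermediate the median was 1.73 and 8 of 10 passed a ratio of 1 upward, against 0.825% of all genes. Without Mylk, whose call is lost under the settings named for it, 7 did. Tpm1, at 0.64, and Tpm2, at 0.80, were the ones that did not. The second step was the larger one in all 10 genes, although the 2 steps share the intermediate library and so are not independent.

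**Figure D2:**
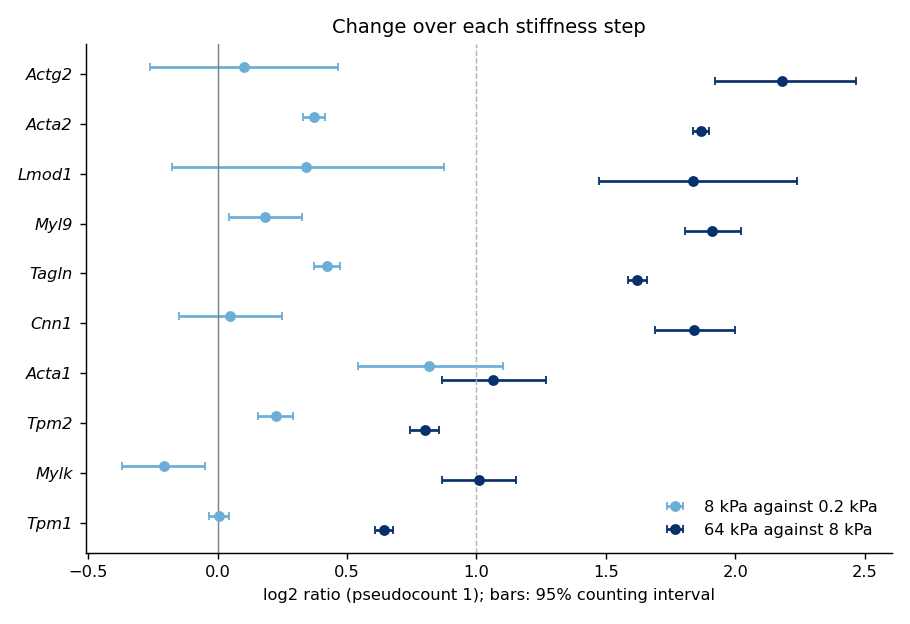
Log2 ratio of each contractile gene (horizontal axis, with 95% counting intervals) for 8 against 0.2 kPa in light blue and 64 against 8 kPa in dark blue, with genes ordered by their stiff to soft ratio. The dashed line marks a ratio of 1, and the dark points lie to the right of the light ones in every gene, least so in Acta1.

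Levels can be compared between genes only per length, here as normalized counts per kilobase of the canonical transcript. On that scale the order at 0.2 kPa was Tpm1 (4819), Tagln (3436), Acta2 (2790.2), Tpm2 (1037), Myl9 (543), Cnn1 (168), Acta1 (102), Mylk (87.1), Actg2 (75.2) and Lmod1 (13.8). Acta1 and Mylk did not differ beyond counting error, nor did Mylk and Actg2. At 8 kPa Tpm1 (4834) and Tagln (4603) still led, Acta1 (180.2) and Cnn1 (174) were equal within counting error, and so were Actg2 (80.6) and Mylk (75.4). At 64 kPa Tagln (14174) and Acta2 (13208) stood above Tpm1 (7540.0), and Myl9 (2322) above Tpm2 (2111). Acta1 (378) and Actg2 (368) did not differ beyond counting error there. The level of Acta2 per length thus exceeded that of Tpm1 in the stiff library only, among the 3.

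**Figure D3:**
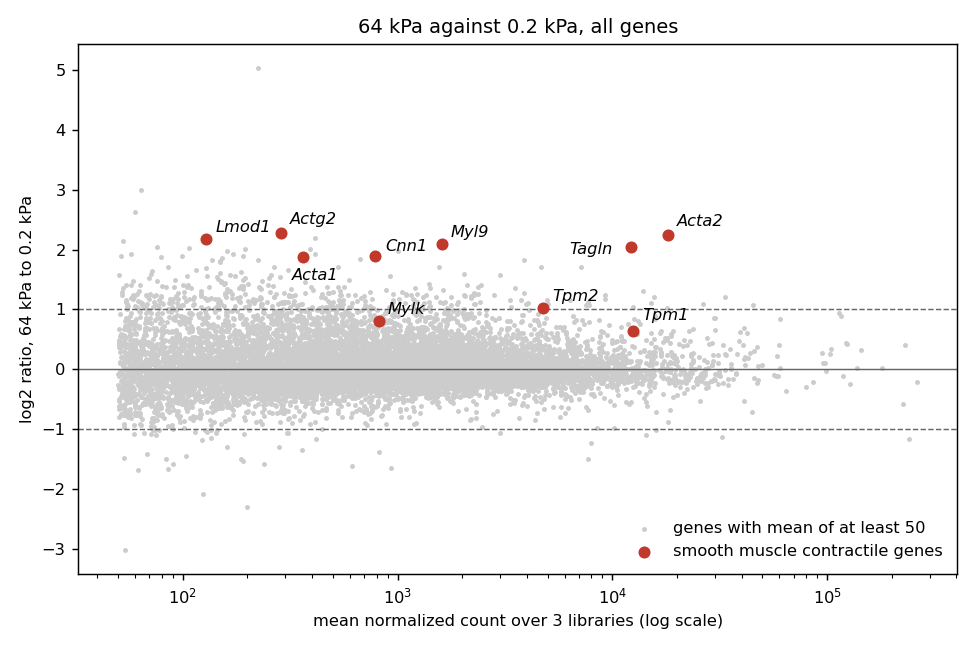
Log2 ratio of 64 to 0.2 kPa (vertical axis) against the mean normalized count over the 3 libraries (horizontal axis, log scale) for the 11873 genes with a mean of at least 50, with the contractile genes in red and dashed lines at ratios of 1 and -1. Of the red points, 7 lie between 1.88 and 2.28, and Tpm1, Mylk and Tpm2 lie between 0.65 and 1.02.

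Each contractile protein has relatives that most cells make, and these were compared within families. Beta-actin and gamma-actin of the cytoplasm, encoded by Actb and Actg1, had stiff to soft log2 ratios of 0.83 (0.82 to 0.85) and 0.69 (0.67 to 0.71). Actb stood at 47207, 49529 and 84152 normalized counts and Actg1 at 34382, 33867 and 55432. The muscle actins Acta2, Actg2, Acta1 and Actc1 took 9.0% of all actin reads at 0.2 kPa (interval 8.81% to 9.19%), 11.2% at 8 kPa and 21.4% at 64 kPa (21.2% to 21.6%). Per length their shares were 6.87%, 8.60% and 16.8%.

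Tagln2, the widely expressed relative, had 17877, 19280.2 and 21088 normalized counts, a stiff to soft ratio of 0.24 (0.21 to 0.27). The share of Tagln in the reads of Tagln, Tagln2 and Tagln3 was 24.1% (23.5% to 24.6%) at 0.2 kPa, 28.3% (27.7% to 28.8%) at 8 kPa and 52.6% (52.1% to 53.1%) at 64 kPa. Tagln was thus the minor form on the soft and intermediate plates and the major one on the stiff plate.

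Among the calponins, Cnn2 had a stiff to soft ratio of 0.78 (0.73 to 0.83) and Cnn3 of 0.13 (0.08 to 0.18), against 1.89 for Cnn1. Cnn1 nonetheless stayed a small part of the family, at 3.22% (2.91% to 3.54%) of its reads at 0.2 kPa, 3.49% (3.18% to 3.83%) at 8 kPa and 8.25% (7.85% to 8.67%) at 64 kPa. Of the light chains, Myl6, the essential light chain of smooth and non-muscle myosin, had a ratio of 0.24 (0.21 to 0.27). The non-muscle regulatory light chain Myl12a had one of 0.33 (0.28 to 0.38). Myl12b had only 46.1 to 60.5 normalized counts, and its coding sequence is 96.5% identical to that of Myl12a, so its count is uncertain and no share of Myl9 is given.

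Lmod1 belongs with the tropomodulins, which cap filament ends. Tmod3, the most abundant of them, had 3326, 3261 and 3357 normalized counts, with a stiff to soft ratio of 0.01 (-0.06 to 0.08). Tmod2 had a ratio of 0.32 (0.01 to 0.63). Tmod1, with only 9, 18 and 31 reads, had one of 1.68 (0.68 to 3.04). That interval overlaps the one of Lmod1 (1.77 to 2.64), so Lmod1 and Tmod1 could not be told apart by their ratios. Lmod1 made up 1.59% (1.20% to 2.06%), 2.04% (1.61% to 2.55%) and 6.71% (5.93% to 7.56%) of the reads of leiomodins and tropomodulins in order of stiffness. Tpm1 took 21.0% (20.7% to 21.4%) of the reads of the 4 tropomyosin genes at 0.2 kPa, 20.6% (20.3% to 20.9%) at 8 kPa and 23.2% (22.9% to 23.5%) at 64 kPa, beside Tpm3 with a stiff to soft ratio of 0.26 and Tpm4 with one of 0.44. Mylk2, the skeletal muscle kinase, had 103, 119 and 103 normalized counts.

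**Figure D4:**
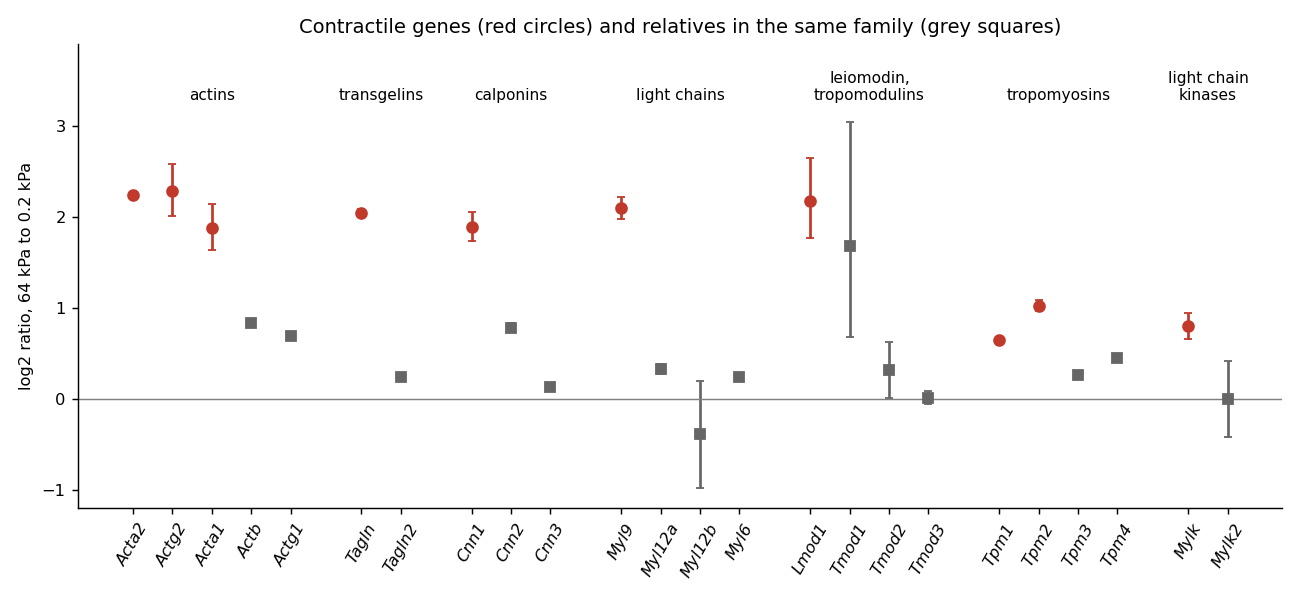
Log2 ratio of 64 to 0.2 kPa (vertical axis, with 95% counting intervals) for each contractile gene (red circles) and the relatives whose counts averaged over 10 (grey squares; of the light chains only Myl12a, Myl12b and Myl6), grouped by protein family along the horizontal axis. Acta2, Tagln, Cnn1 and Myl9 lie between 1.89 and 2.24, and the grey squares drawn for their families lie between -0.38 and 0.83. Beside Lmod1, at 2.18, the grey square of Tmod1 lies at 1.68.

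Other genes of differentiated smooth muscle were less uniform. Of 20 listed, 15 averaged 10 normalized counts or more, and 14 of these were higher and 1, Csrp2 at -0.16, lower at 64 than at 0.2 kPa. Their median log2 ratio was 0.62, against 0.00044 over the 14291 genes with such a mean, of which 50.9% were higher. Of the 14 listed genes with a mean of at least 50, 3 reached a ratio of 1, against 3.22% of all genes with such a mean. Among these 3 were Fhl1 (1.85, interval 1.68 to 2.03) and Jph2 (1.10, 0.92 to 1.29). With the length and GC trend subtracted Jph2 stood at 0.63. Fhl1 encodes a LIM-domain protein of muscle, and Jph2 a protein that holds the sarcoplasmic reticulum against the cell membrane. Smtn, the gene of smoothelin, had 887, 1260.4 and 1557 normalized counts, and Cald1, the gene of the thin-filament protein caldesmon, 28528, 28380.1 and 31481.

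The gene of smooth muscle myosin heavy chain was nearly silent. Myh11, the most specific marker of mature smooth muscle, had 7, 7 and 10 reads in order of stiffness, with a stiff to soft ratio of 0.46 (-1.03 to 2.15). Kcnmb1, a channel subunit of smooth muscle, had 8, 1 and 10 reads, and Pln, the gene of phospholamban, had none. Des, the gene of the muscle intermediate filament desmin, had 64.6, 88.6 and 83.1 normalized counts. Markers of the mural cells that surround vessels had ratios near 0 at the median. Of 10, 7 had a mean of at least 10, and their median stiff to soft ratio was -0.01 (-0.27 with the length and GC trend subtracted). Of these 7, 3 were higher and 4 lower, where 50.9% of all genes with such a mean were higher. Pdgfrb, the most abundant mural marker, had 7766, 8354 and 7732 normalized counts, and the summed level of the 10 was 11139, 12774 and 12009.6. Kcnj8 had 4, 0 and 1 reads and Higd1b none.

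Skeletal and cardiac muscle were checked because of Acta1. Of 11 skeletal muscle markers 2, Mylpf and Actn3, had a mean of at least 10, Myh4 had no read, and the summed level was 147, 158 and 192 normalized counts. Of 6 cardiac markers only Tnnt2 passed that mean, at 20.5, 14.1 and 13.3, and Myh6 and Nppa had no read. Of the macrophage markers 12 of 12 were, like the contractile genes, higher at 64 than at 0.2 kPa, with a median stiff to soft ratio of 1.26, and 12 of 12 were higher at 8 than at 0.2 kPa. Over the 14291 genes averaging 10 or more, 50.9% were higher at 64 and 52.6% at 8 kPa than at 0.2 kPa. Lyz2, the most abundant macrophage marker, had 18362, 21482 and 39173 normalized counts. Of the 9 fibroblast markers 6 were higher and 3 lower at 64 kPa, with a median of 0.26 (0.052 with the length and GC trend subtracted), and their summed level was 271914, 334654 and 404757. The part of any change in cell makeup in the contractile gene values was not tested.

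Genes that link and bundle actin filaments were also mostly higher at 64 kPa. Of 12 listed, 11 were higher, with a median stiff to soft ratio of 0.71, and Tes, at -0.05, was not. Flnc, Palld, Actn1 and Zyx, genes of filamin C, palladin, alpha-actinin 1 and zyxin, reached 1.38, 1.36, 1.18 and 1.13. Over all genes with a mean of at least 50, 3.22% reached a ratio of 1 upward and 51.1% were above 0. After subtraction of the trend in length and GC content the median was 0.43. Flnc, one of the long transcripts, stood at 0.53, and Actn1 and Zyx were under 1, at 0.97 and 0.93.

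Known regulators of the contractile genes were read in the same libraries. Srf, the gene of serum response factor, had 1417, 1425 and 2172 normalized counts, a stiff to soft ratio of 0.62 (0.52 to 0.72), which was 0.25 with the trend subtracted. Its cofactor genes Mrtfa and Mrtfb had ratios of 0.88 (0.76 to 0.99) and 0.81 (0.58 to 1.04), which were 0.61 and 0.41 with the trend subtracted. Myocd, the gene of myocardin, the cofactor of mature smooth muscle, had 2, 0 and 3 reads and is not above the limit of 3 reads. Tead1, the gene of a TEAD factor, had a ratio of 0.997, just outside the threshold. Of 18 regulators, 16 had a mean of at least 10, with a median of 0.39 (0.24 with the trend subtracted) and 13 higher against 3 lower. None of the 14 with a mean of at least 50 reached a ratio of 1, and Gata6, at 14.4, 38.7 and 29.7 normalized counts, had one of 1.002 (0.08 to 2.09). Klf4, a repressor of smooth muscle genes, had 755 to 1284 normalized counts, highest at 64 kPa.

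The genes that set light chain phosphorylation at the protein level differed less. Of 14 listed, 13 had a mean of at least 10, with a median stiff to soft ratio of 0.09 and no ratio of 1. Of the 13, 10 were higher and 3 lower, where 50.9% of all genes with such a mean were higher. The kinase genes Rock1 and Rock2 had ratios of 0.06 (-0.11 to 0.24) and 0.56 (0.47 to 0.66). Ppp1r12a, the gene of the targeting subunit of myosin phosphatase, had a ratio of 0.67 (0.53 to 0.81), and Ppp1cb, the gene of its catalytic subunit, one of -0.23 (-0.27 to -0.19), which was -0.10 with the trend subtracted.

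**Figure D5:**
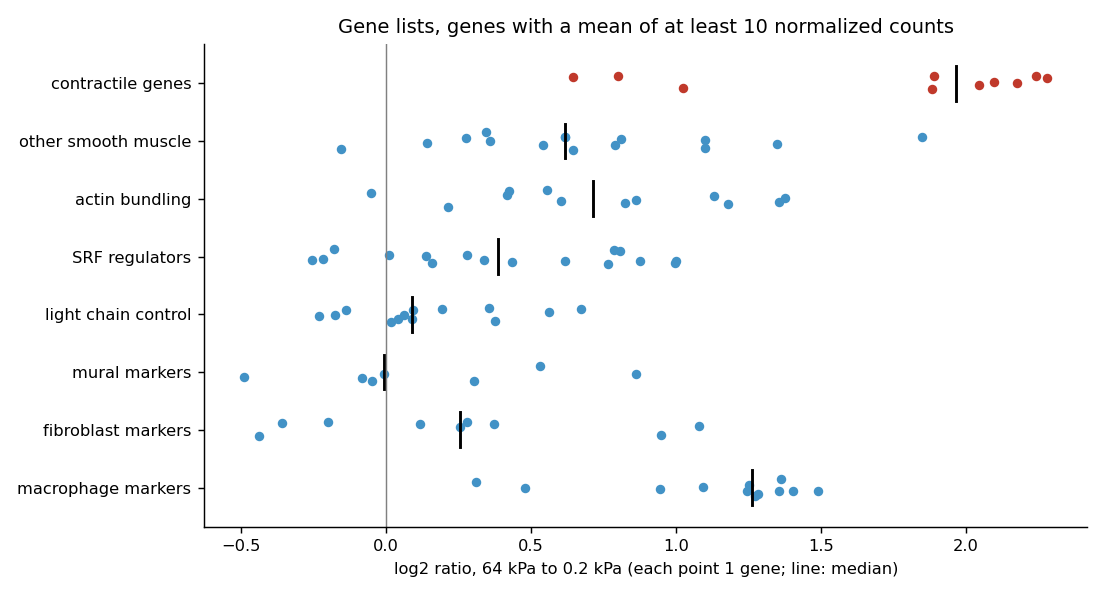
Log2 ratio of 64 to 0.2 kPa (horizontal axis) for single genes (points, spread vertically for legibility) of the contractile genes and 7 other lists, with the median as a black line. Medians were 1.97 for the contractile genes, 0.62 for other smooth muscle genes, -0.01 for mural markers and 1.26 for macrophage markers.

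The promoters of the contractile genes were searched for CArG boxes because SRF is known to bind them. Of the 10 genes, 8 were matched in the table of RefSeq promoters used here (GRCm38.p6), and the 250 bases before each start were read. Actg2 and Tagln were not analysed here. The GRCm38.p6 coordinates given with these windows are not on the build of the counts. A CArG box (CC, then a core of 6 A or T bases, then GG) occurred in 2 of the 8, Acta1 and Myl9, and in 1.47% of all 32851 such windows in the table. A CArG-like site, with 1 G or C in the core, occurred in Acta2, Acta1 and Myl9, and in 7.24% of all windows. The 3 windows with either kind are shown, with the matches in capitals, read 5′ to 3′ on the strand of the gene.
Acta2 promoter, chr19:34255374-34255623, minus strand: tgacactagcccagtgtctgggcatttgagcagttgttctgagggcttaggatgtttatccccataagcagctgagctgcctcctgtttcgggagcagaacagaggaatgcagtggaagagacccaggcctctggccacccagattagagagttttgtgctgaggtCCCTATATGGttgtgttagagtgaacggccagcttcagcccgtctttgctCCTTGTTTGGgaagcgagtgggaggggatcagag
Acta1 promoter, chr8:123894776-123895025, minus strand: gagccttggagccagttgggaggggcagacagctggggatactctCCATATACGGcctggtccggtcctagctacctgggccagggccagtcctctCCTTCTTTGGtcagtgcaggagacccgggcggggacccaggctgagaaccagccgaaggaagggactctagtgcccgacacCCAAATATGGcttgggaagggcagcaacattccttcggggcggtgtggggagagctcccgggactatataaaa
Myl9 promoter, chr2:156775214-156775463, plus strand: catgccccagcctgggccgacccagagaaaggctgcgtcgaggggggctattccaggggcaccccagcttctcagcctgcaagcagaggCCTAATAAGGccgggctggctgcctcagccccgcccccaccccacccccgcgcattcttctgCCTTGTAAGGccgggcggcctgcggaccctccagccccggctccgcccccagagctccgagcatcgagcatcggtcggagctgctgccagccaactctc
Acta2 has its CArG-like matches 84 and 34 bases before the start. Acta1 has a CArG box at 73 and CArG-like matches at 205 and 154, and Myl9 has a CArG box at 161 and a CArG-like match at 99. The motif CATTCC, known as a site of TEAD factors and searched on both strands, was in the windows of Acta2, Acta1, Lmod1, Tpm1 and Mylk, and in 12.6% of all windows. No such motif overlaps a CArG match in these 8 windows. The stiff to soft log2 ratios of the genes with a CArG or CArG-like match were 2.24, 1.88 and 2.10. Those of the 5 without one in this window, Cnn1, Lmod1, Tpm1, Tpm2 and Mylk, ranged from 0.65 to 2.18. The genes were chosen on these ratios, so setting them side by side is no test of the motif. Sequence outside the 250 bases was not searched, and sites there would be missed. The match describes the letters of these windows only.

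The genes whose pattern over the 3 libraries was most like that of the contractile genes were Acod1, Adcyap1r1, Esam, Fhl1 and Lratd2. Likeness was the distance between a gene's pair of log2 ratios, intermediate to soft and stiff to soft, and the median pair of the 10 contractile genes, 0.20 and 1.97, over 10637 other named genes with a mean of at least 100. The distances were 0.041 for Acod1, 0.099 for Adcyap1r1, 0.17 for Esam, 0.18 for Fhl1 and 0.19 for Lratd2. The counting intervals of the 5 genes were wider than these distances, so their order is not resolved at this depth. For Acod1 they ran from 1.59 to 2.30 for stiff to soft and from -0.21 to 0.65 for intermediate to soft. Of the contractile genes themselves, Myl9 lay at 0.13, Cnn1 at 0.17 and Acta1 at 0.62, and Tpm1 lay farthest out. Acod1, which encodes the enzyme that makes itaconate in activated macrophages, had 86.1, 99.9 and 330.2 normalized counts. Adcyap1r1, a neuropeptide receptor gene, had 77.9, 90.5 and 287, and Esam, an adhesion protein gene of endothelium and platelets, 78.9, 86.7 and 280.0.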

How the data were processed

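Bulk RNA was sequenced from TruSeq stranded mRNA libraries, per the labels' protocols, with 1 library per stiffness. Per the submitters' processing notes, tools were bcl2fastq 2.20.0, STAR 2.7.9a, featureCounts, Subread 2.0.1 and DESeq2 1.34.0, with build GRCm39. Counting options and the annotation are not given in the sources used here. The authors deposited a signal per gene, its reads scaled by 1 size factor for each library, and the 3 deposited files are identical. In each column 100.0% of values were whole multiples of the smallest (tolerance 0.01 reads), so whole reads were recovered. No count model could be fitted without replicates, and no p-value is given.

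Log2 ratios used a pseudocount of 1. Symbols were matched to GENCODE vM39 (GRCm39) for 10 of 10 contractile genes and for 11655 of the 11873 genes averaging 50 or more. The contractile genes and all lists were chosen with earlier results of these data known. The text names all 10, genes of the lists, and the 5 genes nearest in pattern; values of some listed genes are not reported here. Share intervals are Clopper-Pearson and cover counting error only. Alternatives were pseudocounts, scalings (edgeR 4.0.16 TMM, totals, upper quartile), filters, thresholds and a length and GC trend. The counting rule, the intervals and the trend fit were tested on simulated data. The simulated reads varied by counting error only, so they cannot show how often the rule calls genes between unreplicated cultures. Python 3.11.15, scipy 1.17.1 and R 4.3.3 were used.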

Additional observations from a re-analysis of the deposited data

How the results depend on the processing

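No paired analysis was possible because each stiffness level has 1 library, so there is no second replicate number to pair, and leaving out a replicate was likewise not possible. Under the pseudocounts, scalings and trend subtraction, and without the 3 actins, the median log2 ratio of the 10 contractile genes ran from 1.89 to 1.99 for stiff against soft, 0.17 to 0.21 for intermediate against soft, and 1.62 to 1.73 for stiff against intermediate. The counts moved by over 1.5 times only with the threshold. At a log2 ratio of at least 2, 5 genes were higher in stiff against soft (0.118% of all genes) and 1 in stiff against intermediate (0.0421%). At 0.5, 1 gene was higher in intermediate against soft, Acta1 (3.94% of all genes). Tpm2 lay under the threshold of 1 in stiff against soft, and Mylk in stiff against intermediate, under scaling to totals, to the upper quartile and with the length and GC trend subtracted, which left 7 genes each time; a pseudocount of 10 also left 7 in stiff against intermediate. With a minimum mean of 200, Lmod1 dropped out and 7 were left in both. Of 180 values for single genes under alternatives, 165 stayed inside their counting interval and 15 left it; the only sign that changed was that of Tpm1 in intermediate against soft, 0.004 as deposited and -0.03 at the lowest. Lmod1, with 55 to 252 reads, had the widest intervals.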
